A study of Mus musculus with 96 samples.

Results

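Interscapular brown fat (iBAT) was compared with inguinal white fat (iWAT) of wild-type male C57BL/6J mice kept at 30 °C on a high fat diet with 48% of energy from fat. The 16 libraries, 8 of iBAT and 8 of iWAT, were chosen by their genotype, diet, temperature and tissue labels out of 96 libraries in all. The study compared both depots of wild-type and Ucp1-KO mice of this strain, on high fat or control diet at 30 °C (thermoneutrality) or on control diet at 20 °C, after 4 weeks and with 8 animals per group. Both depots came from the same animals, but the labels do not show which libraries of the depots share a mouse. To see where the depot difference varied, it was set beside the same difference in wild-type mice on control diet with 13% of energy from fat at 30 °C, and in Ucp1-KO mice on the high fat diet at 30 °C. Each of these 4 further groups also held 8 libraries. The age of the mice and the construction of the Ucp1-KO allele are not given in the labels. The RNA came from whole tissue, so fewer cells of a type and less RNA per cell cannot be told apart.

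Brown adipocytes burn fat to make heat through UCP1, a protein of the inner mitochondrial membrane that lets protons flow back without making ATP. White adipocytes store triglyceride in one large droplet and secrete hormones such as leptin and adiponectin. The depots also arise at different positions of the embryo and hold different stromal, immune and nerve cells, and the inguinal pad normally encloses a lymph node.

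Levels are given in RPKM, a read density scaled to transcript length and library size, as deposited. A difference is iBAT minus iWAT on the log2(RPKM + 1) scale, printed with its standard error, and it understates the change of low genes. Adjusted p-values are from limma with Benjamini-Hochberg adjustment over the 16310 genes tested, and a gene was called at an adjusted p below 0.05. The libraries rested on 9.005 to 13.53 M reads in iBAT and 11.13 to 16.23 M reads in iWAT, recovered from the spacing of low values. Correlations of log2 levels over genes were 0.979 to 0.993 between iBAT libraries and 0.974 to 0.995 between iWAT libraries, against 0.877 to 0.940 between depots. The iWAT library numbered 87 stood apart, with the highest summed level of mitochondrial genes and of brown fat genes among the 8, and the iWAT libraries 85 and 88 had the highest sums of T cell markers.

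Most of the measured transcriptome differed between the depots. Of 16310 genes, 12823 (78.6%) were called, 2724 (16.7%) higher and 10099 (61.9%) lower in iBAT. The 8 iBAT libraries did not overlap with the 8 iWAT libraries in 7926 genes (48.6%), with 8.82% of all genes higher and 39.8% lower in iBAT in this sense. The split of directions depended on the scaling, since the median difference over all genes was -0.40. With median-ratio scaling the median was -0.07, 74.2% of genes were called, and 5473 genes were higher and 6628 lower, and with quantile normalization the median was 0.06 and 6516 were higher and 5496 lower. Differences below are therefore read against -0.40 as the middle of all genes, and counts of list members against 16.7% higher and 61.9% lower. A difference of at least 1 was called in 784 genes (4.81%) on the side of iBAT and in 3435 (21.1%) on the side of iWAT. Beside this, the 10 highest genes took 25.3 to 31.5% of the summed RPKM in iBAT libraries, against 11.7 to 20.1% in iWAT libraries.

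Genes of heat production rose steeply in iBAT. Ucp1 itself had 4858 to 7710 RPKM in iBAT (median 6413), against 0.258 to 32.7 RPKM in iWAT (median 16.6). The depots lay far apart, and the difference was 9.20 ± 0.40 (adjusted p = 8.5e-37). The transcript made up 1.24 to 1.77% of the summed RPKM in iBAT and 6.68e-05 to 0.00781% in iWAT. Among the iWAT libraries Ucp1 varied widely, with the lowest at 0.258 RPKM.

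Of 40 genes of heat production and brown identity, all tested, 33 were higher and 4 lower in iBAT, with a median difference of 3.11, beside 16.7% and 61.9% of all genes. Cidea, a lipid droplet protein of brown fat, had 628 to 1383 RPKM in iBAT (median 750), against 5.6 to 71 RPKM in iWAT (median 9.12). The top iWAT value belonged to library 87, the depots did not overlap, and the difference was 6.11 ± 0.22 (adjusted p = 2.9e-42). Dio2, the deiodinase that makes active thyroid hormone inside the cell, had 76.9 to 225 RPKM in iBAT (median 131), against 0.123 to 2.72 RPKM in iWAT (median 0.257), and iBAT was higher in every library by 6.41 ± 0.26 (adjusted p = 1.2e-38). Cpt1b, the muscle-type carnitine palmitoyltransferase that admits fatty acids to mitochondria, had 305 to 423 RPKM in iBAT (median 368), against 1.92 to 11.3 RPKM in iWAT (median 2.95). Its difference was 6.37 ± 0.19 (adjusted p = 6.8e-48), again with no overlap.

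Other genes of the group reached the same size. Cox7a1 and Cox8b, variants of cytochrome c oxidase subunits found in muscle and brown fat, lay among them. Cox7a1 averaged 628 ± 75.9 RPKM in iBAT and 6.51 ± 2.97 RPKM in iWAT (SD, n = 8 each). Cox8b averaged 1763 ± 359 RPKM in iBAT and 54.8 ± 43.7 RPKM in iWAT (SD, n = 8 each). Their differences were 6.46 ± 0.25 (adjusted p = 9e-41) and 5.19 ± 0.20 (adjusted p = 1.2e-40). Otop1, a proton channel of the otopetrin family, differed by 4.93 ± 0.17 (adjusted p = 1.5e-44). Elovl3, an elongase of very long fatty acids that is induced by cold, had 7.33 to 176 RPKM in iBAT (median 29.2), against 0.158 to 5.57 RPKM in iWAT (median 0.357), a wide spread in iBAT with a difference of 4.29 ± 0.33 (adjusted p = 2e-21). Ppargc1a, the coactivator that drives mitochondrial gene expression, had 15.7 to 62.7 RPKM in iBAT (median 33.5), against 0.747 to 1.75 RPKM in iWAT (median 1.26) and was higher by 3.89 ± 0.19 (adjusted p = 1.5e-32).

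Some brown identity genes were only slightly higher in iBAT, and 4 were lower. Prdm16, a transcriptional regulator of brown adipocytes, had 3.96 to 6.03 RPKM in iBAT (median 4.65), against 2.17 to 5.36 RPKM in iWAT (median 2.99). The depots overlapped. Prdm16 was called higher by 0.45 ± 0.11 (adjusted p = 0.00023), between the all-gene middle of -0.40 and the list median of 3.11. Lhx8, often used as a brown marker, was lower in iBAT at -0.42 ± 0.12 (adjusted p = 0.001), but the direction turned with quantile normalization, where it was 0.27. Irf4, a factor of adipocytes, lymphocytes and macrophages, was lower at -2.62 ± 0.25 (adjusted p = 1.1e-16), and Epsti1, an interferon-induced gene, was lower at -4.24 ± 0.27 (adjusted p = 3.8e-26). Zfp516, a factor that binds the Ucp1 promoter, was lower too, at -0.53 (adjusted p = 2.3e-06), near the all-gene middle of -0.40. Either median-ratio scaling or quantile normalization left only 2 of the 4 lower calls of this list, those of Irf4 and Epsti1. The call of Zfp516 was thus lost under each of these scalings. Irf4 and Epsti1 are also expressed by immune cells, whose marker sums were higher in iWAT, as given below, and their part in these differences was not tested.

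**Figure D1:**
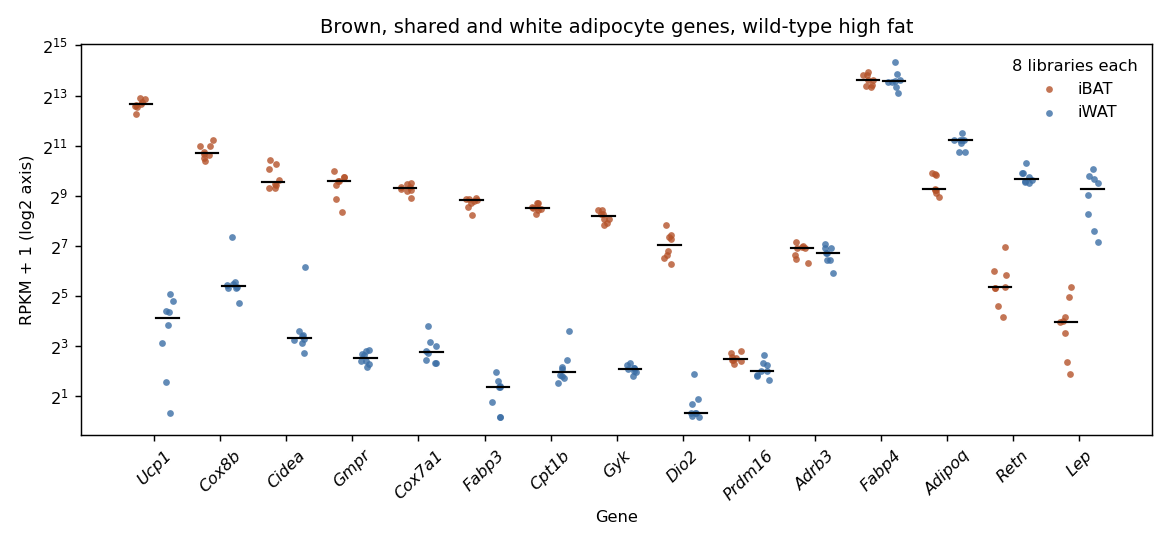
RPKM + 1 on a log2 axis for 15 genes, with a point for each library and a bar at the median of each group of 8, iBAT left of iWAT. The medians of Ucp1 were 6413 RPKM in iBAT and 16.6 RPKM in iWAT, and those of Lep 14.7 RPKM in iBAT and 625 RPKM in iWAT. The depots overlapped for Prdm16, Fabp4 and Adrb3.

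Among the 12 largest positive differences with no overlap, several concern the supply and handling of fatty acids. Fabp3, a carrier protein of fatty acids in heart and muscle, had 303 to 475 RPKM in iBAT (median 450), against 0.124 to 2.95 RPKM in iWAT (median 1.56), and the difference was 7.62 ± 0.31 (adjusted p = 1.3e-38). Gyk, the glycerol kinase that lets fat cells reuse glycerol, had 228 to 341 RPKM in iBAT (median 288), against 2.48 to 4.08 RPKM in iWAT (median 3.29) and differed by 6.08 ± 0.20 (adjusted p = 8.7e-46). Slc27a2, a fatty acid transporter with acyl-CoA synthetase activity, differed by 6.02 ± 0.31 (adjusted p = 1.4e-31), and Pank1, the pantothenate kinase at the start of coenzyme A synthesis, by 5.52 ± 0.14 (adjusted p = 1e-52). Gmpr, a guanosine monophosphate reductase, averaged 724 ± 224 RPKM in iBAT and 4.88 ± 1.01 RPKM in iWAT (SD, n = 8 each), a difference of 6.89 ± 0.26 (adjusted p = 1.5e-41). Lgr6, a receptor of the R-spondin family of ligands, had 41.8 to 70.2 RPKM in iBAT (median 52.7), against 0 to 0.233 RPKM in iWAT (median 0.116) and was listed at 0 in 2 iWAT libraries.

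Transcripts of respiration genes were higher in iBAT almost without exception. Of 76 nuclear genes of oxidative phosphorylation tested, 71 (93.4%) were higher and 3 (3.95%) lower, beside 16.7% and 61.9% of all genes. In 71 the iBAT libraries lay higher with no overlap between depots, beside 8.82% of all genes. The median difference of the list was 1.97. The summed level of the list was 25519 to 37252 RPKM in iBAT, against 6986 to 10902 RPKM in iWAT, where library 87 was highest. Ndufv1, a subunit of complex I that binds NADH, had 377 to 473 RPKM in iBAT (median 456), against 48.6 to 89.7 RPKM in iWAT (median 57.9), a difference of 2.84 ± 0.10 (adjusted p = 1.2e-44). Uqcrc1 and Cyc1 of complex III differed by 2.74 ± 0.09 (adjusted p = 1e-44) and 2.66 ± 0.10 (adjusted p = 1.4e-40). Cox5a and Cox4i1 of complex IV differed by 2.76 ± 0.12 (adjusted p = 9.7e-36) and 2.02 ± 0.12 (adjusted p = 4.4e-28). Atp5b, the catalytic beta subunit of ATP synthase, averaged 3607 ± 251 RPKM in iBAT and 644 ± 119 RPKM in iWAT (SD, n = 8 each), a difference of 2.50 ± 0.12 (adjusted p = 8.3e-35).

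The 3 genes lower in iBAT all belong to ATP synthase or its regulation. Atp5g1, a gene for the ring subunit c, had 3.45 to 8.7 RPKM in iBAT (median 6.09), against 16 to 25.6 RPKM in iWAT (median 19.9), with no overlap and a difference of -1.56 ± 0.25 (adjusted p = 5.2e-08). Atpif1, the inhibitor of the enzyme, differed by -1.36 ± 0.13 (adjusted p = 9.4e-17). Atp5g3, another gene for subunit c, differed by -0.72 ± 0.13 (adjusted p = 6.1e-07), and this call was lost with median-ratio scaling, where the difference was -0.21. The third subunit c gene, Atp5g2, was listed at 0 in all 16 libraries. These genes have near-identical copies in the genome, so their values are uncertain.

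Of 16 tissue-specific variants of respiratory subunits, 13 (81.2%) were higher and none lower, beside 16.7% and 61.9% of all genes. Their median difference was 1.65. Cox7a2, the more widely expressed counterpart of Cox7a1, differed by 1.91 ± 0.12 (adjusted p = 4.4e-26), less than Cox7a1 did. The 7 listed genes of the mitochondrial genome were all higher in iBAT, with a summed level of 67976 to 107212 RPKM in iBAT and 14054 to 28027 RPKM in iWAT. These 7 genes took 17.3 to 24% of all RPKM in iBAT libraries and 3.64 to 6.7% in iWAT libraries. COX1, the catalytic subunit of complex IV, had 21916 to 32835 RPKM in iBAT (median 25791), against 4540 to 9113 RPKM in iWAT (median 5342) and differed by 2.21 ± 0.15 (adjusted p = 2.1e-24), and ND5 of complex I by 2.32 ± 0.15 (adjusted p = 4.1e-26). ND6, which lies beside ND5 on the opposite strand, differed by 2.30 ± 0.15 (adjusted p = 2.4e-25), and ND4L, which overlaps its neighbour, by 2.35 ± 0.18 (adjusted p = 7e-22). These 2 may share reads with their neighbours. COX2, COX3 and ND3 were listed at means of 0.216 to 4.93 RPKM, far below COX1, and their levels are uncertain.

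The matching set of nuclear genes for mitochondrial upkeep moved the same way but less. Of 39 genes of import, folding, fusion and mitochondrial DNA, 30 (76.9%) were higher and 3 (7.69%) lower, beside 16.7% and 61.9% of all genes. Their median difference was 0.89. Chchd10, a protein of the intermembrane space, had 674 to 1003 RPKM in iBAT (median 748), against 18.9 to 90.3 RPKM in iWAT (median 24.7), a difference of 4.53 ± 0.21 (adjusted p = 2.9e-34). Slc25a42, a carrier of coenzyme A, differed by 3.95 ± 0.13 (adjusted p = 1.2e-45), and Letmd1, a mitochondrial inner membrane protein, by 3.47 ± 0.11 (adjusted p = 7.8e-47). Nrf1, a transcription factor of nuclear respiratory genes, was lower in iBAT, with 3.97 to 5.73 RPKM in iBAT (median 4.29), against 6.81 to 13.2 RPKM in iWAT (median 8.64) and a difference of -0.87 ± 0.12 (adjusted p = 7.5e-10).

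Promoters of 3 genes are shown because they hold the binding motif of that factor and because the genes were among those higher in iBAT. The NRF1 motif, spelled by the capitals in the sequences, reads the same on both strands. It was looked for in 250 bases before to 50 after each gene start (RefSeq, GRCm38.p6), with a single chromosome left out. It was present in 1.07% of 27025 genes with a promoter, in 5 of 65 nuclear oxidative phosphorylation genes (7.69%) and in 2 of 24 fatty acid oxidation genes (8.33%), but in 0 of 24 TCA cycle genes and 1 of 30 heat and brown identity genes (3.33%). The respiratory genes were Uqcrc1, Cox6a1, Atp5k, Ndufa11 and Atp5g2. Apart from Atp5g2, each was called higher, Cox6a1 by 1.99 ± 0.11, Atp5k by 2.00 ± 0.12 and Ndufa11 by 1.55 ± 0.12. In the whole list 71 of 76 tested genes (93.4%) were called higher, with or without the motif. Its part in the depot difference was not tested. Positions of different motifs were not checked for overlap, and a match describes the letters in the window only. The sequences are given 5′ to 3′ on the gene's strand, with the motif in capitals, for Uqcrc1 at chr9:108936398-108936697 (plus strand), Cox6a1 at chr5:115348909-115349208 (minus strand) and Etfdh at chr3:79628718-79629017 (minus strand), an electron carrier of fatty acid oxidation.
Uqcrc1: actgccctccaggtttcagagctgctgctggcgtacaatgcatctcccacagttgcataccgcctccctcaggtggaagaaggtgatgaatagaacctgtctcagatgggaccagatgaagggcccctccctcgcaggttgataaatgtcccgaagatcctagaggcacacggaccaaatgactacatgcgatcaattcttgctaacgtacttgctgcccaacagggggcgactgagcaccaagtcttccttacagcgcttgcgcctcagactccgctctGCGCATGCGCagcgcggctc
Cox6a1: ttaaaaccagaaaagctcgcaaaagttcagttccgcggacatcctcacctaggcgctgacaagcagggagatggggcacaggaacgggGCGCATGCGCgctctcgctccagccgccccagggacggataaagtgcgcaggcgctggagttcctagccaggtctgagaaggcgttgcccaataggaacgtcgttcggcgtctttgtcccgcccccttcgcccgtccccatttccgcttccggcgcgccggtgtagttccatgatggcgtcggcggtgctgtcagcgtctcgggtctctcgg
Etfdh: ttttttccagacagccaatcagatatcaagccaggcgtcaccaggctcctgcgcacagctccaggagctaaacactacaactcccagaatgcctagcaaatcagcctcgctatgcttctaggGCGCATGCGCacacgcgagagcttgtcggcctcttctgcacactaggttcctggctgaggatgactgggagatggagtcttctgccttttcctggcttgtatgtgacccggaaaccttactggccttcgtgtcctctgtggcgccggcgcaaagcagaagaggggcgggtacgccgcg

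In these sequences the motif starts 31 bases into the transcript for Uqcrc1, and 162 and 128 bases before the gene start for Cox6a1 and Etfdh. Other motifs were searched on both strands of the same windows. TCAAGGTCA, bound by estrogen-related receptors, was in 0.466% of all genes and in 2 of the 65 respiratory genes, Atp5g3 and Sdhd, and CCGGAAGTG, bound by GABP, was in 2.25% of all genes and in 2 of the 65. The PPAR motif, a direct repeat with a spacer of 1 base, was in 0.0481% of all genes and in none of the 65.

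Most transcripts of fatty acid oxidation were higher in iBAT. Of 30 fatty acid oxidation genes, 25 (83.3%) were higher and 3 (10%) lower in iBAT, beside 16.7% and 61.9% of all genes. Their median difference was 2.00. Acaa2, the mitochondrial thiolase that ends each cycle of beta-oxidation, had 902 to 1186 RPKM in iBAT (median 1062), against 53.5 to 94.5 RPKM in iWAT (median 72.2), a difference of 3.84 ± 0.13 (adjusted p = 5.4e-45). Acadvl, which starts the oxidation of very long chains, differed by 3.63 ± 0.11 (adjusted p = 1.9e-48), and Etfdh by 3.21 ± 0.09 (adjusted p = 1.9e-52). Exceptions lay with other isoforms. Cpt1a, the liver-type carnitine palmitoyltransferase, was lower in iBAT, with 8.63 to 13.1 RPKM in iBAT (median 11.4), against 19.3 to 34.7 RPKM in iWAT (median 31.4) and a difference of -1.35 ± 0.12 (adjusted p = 3e-17). Acaa1a, the peroxisomal thiolase, was lower at -0.87 ± 0.09 (adjusted p = 1.4e-14).

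Of 27 genes of the TCA cycle and pyruvate entry, 24 (88.9%) were higher and 3 (11.1%) lower, beside 16.7% and 61.9% of all genes. Their median difference was 2.19, and with median-ratio scaling 24 were higher and none lower. Sucla2, the ATP-forming succinyl-CoA synthetase subunit, had 644 to 816 RPKM in iBAT (median 678), against 50.1 to 94.2 RPKM in iWAT (median 59.7), with no overlap and a difference of 3.48 ± 0.10 (adjusted p = 9.1e-49), and Idh3a of isocitrate dehydrogenase differed by 2.93 ± 0.11 (adjusted p = 1.3e-42). Pdk4, the kinase that shuts pyruvate out of the cycle, was also high in iBAT, with 792 to 1056 RPKM in iBAT (median 938), against 37.3 to 142 RPKM in iWAT (median 57) and a difference of 3.86 ± 0.17 (adjusted p = 4.8e-36). Pcx, pyruvate carboxylase, was lower in iBAT at -0.56 ± 0.11 (adjusted p = 5.8e-06), a call lost with median-ratio scaling (-0.06).

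Glucose genes were mostly higher in iBAT, 20 of 30 (66.7%), with 3 (10%) lower, beside 16.7% and 61.9% of all genes. Their median difference was 0.88. Ldhb, the lactate dehydrogenase subunit of oxidative tissue, had 164 to 239 RPKM in iBAT (median 194), against 14.2 to 24.4 RPKM in iWAT (median 16.1), a difference of 3.40 ± 0.12 (adjusted p = 2.3e-44). Slc16a1, a lactate and pyruvate transporter, differed by 3.20 ± 0.13 (adjusted p = 5.7e-38), and Pfkl, the liver-type phosphofructokinase, by 2.70 ± 0.11 (adjusted p = 6.6e-40). On the other side, Slc2a1, the basal glucose transporter, differed by -0.76 ± 0.09 (adjusted p = 6.6e-12) and Pygb, a glycogen phosphorylase, by -1.65 ± 0.11 (adjusted p = 2.3e-24). Gapdh, which has many near-identical copies, was listed at means of 2.7 RPKM in iBAT and 1.7 RPKM in iWAT and is uncertain.

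Fat synthesis divided by enzyme. Of 30 genes, 8 (26.7%) were higher and 14 (46.7%) lower, beside 16.7% and 61.9% of all genes. The median difference of the list was -0.29, beside -0.40 over all genes. With median-ratio scaling 11 were higher and 8 lower, beside 33.6% and 40.6% of all genes. Elovl6, the elongase of palmitate, had 44 to 75.5 RPKM in iBAT (median 60.3), against 2.29 to 24.3 RPKM in iWAT (median 4.28), and the top iWAT value was again library 87. Its difference was 3.33 ± 0.24 (adjusted p = 1.2e-22). Gpam, the mitochondrial glycerol phosphate acyltransferase, differed by 2.19 ± 0.12 (adjusted p = 3.4e-30), and Acacb, the mitochondrial acetyl-CoA carboxylase, by 1.86 ± 0.15 (adjusted p = 1.2e-19). Scd2, a stearoyl-CoA desaturase, differed by -2.49 ± 0.21 (adjusted p = 1.1e-18), Pnpla3, a lipid droplet lipase and acyltransferase, by -2.11 ± 0.17 (adjusted p = 1.5e-20), and Srebf1, the main transcription factor of lipogenesis, by -1.43 ± 0.12 (adjusted p = 1.2e-18).

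Fasn, fatty acid synthase, had 134 to 634 RPKM in iBAT (median 215), against 91.2 to 735 RPKM in iWAT (median 164), and the depots overlapped. Its difference of 0.38 ± 0.30 (adjusted p = 0.24) missed the threshold, and without library 87 it was 0.67 (adjusted p = 0.029). Acly, ATP citrate lyase, had 29.8 to 54.9 RPKM in iBAT (median 35.9), against 40.2 to 76.5 RPKM in iWAT (median 43.5), a difference of -0.34 ± 0.27 (adjusted p = 0.25) that was called in the fit of the 2 groups alone (adjusted p = 0.02). Scd1, the main desaturase of fat, averaged 5132 ± 1925 RPKM in iBAT and 6213 ± 1944 RPKM in iWAT (SD, n = 8 each), and the difference of -0.32 ± 0.18 (adjusted p = 0.096) also missed the threshold. Scd1 was called lower with quantile normalization (-0.99, adjusted p = 2.4e-07) and without iBAT library 33 or 34 or iWAT library 85 (-0.39 to -0.42, adjusted p = 0.029 to 0.046).

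Genes of lipid uptake, storage and lipolysis went both ways. Of 35 genes 16 (45.7%) were higher and 9 (25.7%) lower in iBAT, beside 16.7% and 61.9% of all genes. The median difference of the list was 0.20, and 25 were higher under median-ratio scaling, beside 33.6% of all genes. Plin5, a droplet coat protein that ties droplets to mitochondria, had 68.2 to 133 RPKM in iBAT (median 94.1), against 4.97 to 20.7 RPKM in iWAT (median 7.72), a difference of 3.33 ± 0.16 (adjusted p = 8.3e-34). Plin4, a coat protein of nascent droplets, went the other way, with a difference of -2.39 ± 0.14 (adjusted p = 5.7e-28). Cidec, which fuses droplets into a large one, was also called lower, at 468 ± 153 RPKM in iBAT and 1854 ± 436 RPKM in iWAT (SD, n = 8 each). Gpd1, which makes glycerol 3-phosphate, averaged 1783 ± 96.1 RPKM in iBAT and 384 ± 99.6 RPKM in iWAT (SD, n = 8 each), a difference of 2.25 ± 0.12 (adjusted p = 5.1e-30). Fabp4, the adipocyte fatty acid carrier and one of the most abundant transcripts of both depots, had 10376 to 15803 RPKM in iBAT (median 12742), against 8807 to 20852 RPKM in iWAT (median 12198). Its difference of -0.00 ± 0.15 (adjusted p = 1) and that of lipoprotein lipase, Lpl, at -0.11 ± 0.16 (adjusted p = 0.51), were not called. Fabp4 was called higher with median-ratio scaling (0.51, adjusted p = 0.0056) and lower with quantile normalization (-1.02, adjusted p = 2.4e-11). Lpl was called higher with either (0.39, adjusted p = 0.028, and 0.35, adjusted p = 0.006).

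The receptors and enzymes that pass on the sympathetic signal differed unevenly. Of 28 adrenergic and thyroid input genes tested, 17 (60.7%) were higher and 8 (28.6%) lower in iBAT, beside 16.7% and 61.9% of all genes. Their median difference was 0.53. Adrb3, the beta-3 receptor of fat cells, had 79.5 to 142 RPKM in iBAT (median 121), against 60 to 135 RPKM in iWAT (median 105), overlapping, with a difference of 0.16 ± 0.19 (adjusted p = 0.46) that missed the threshold. With median-ratio scaling it was called higher, at 0.66 (adjusted p = 0.0021). Adrb1, the beta-1 receptor, had 14.1 to 29 RPKM in iBAT (median 16.4), against 1.95 to 4.13 RPKM in iWAT (median 2.84) and was higher by 2.27 ± 0.17 (adjusted p = 3e-21). Adra1a, an alpha-1 receptor, was higher by 2.96 ± 0.13 (adjusted p = 1.8e-35).

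The adenylyl cyclases, which make cyclic AMP, split by isoform. Adcy3 had 111 to 175 RPKM in iBAT (median 143), against 8.09 to 13.2 RPKM in iWAT (median 9.6), a difference of 3.75 ± 0.14 (adjusted p = 3.3e-42). Adcy5 had 1.33 to 4.04 RPKM in iBAT (median 2.21), against 23.9 to 43.1 RPKM in iWAT (median 33.9), a difference of -3.39 ± 0.19 (adjusted p = 8.5e-30). Neither pair of ranges overlapped. Gnas, the stimulatory G protein, averaged 1493 ± 199 RPKM in iBAT and 440 ± 22.3 RPKM in iWAT (SD, n = 8 each) and was higher by 1.75 ± 0.09 (adjusted p = 1.3e-32). It was chosen after its values were seen, and the locus makes several overlapping transcripts.

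Of 19 genes of creatine and calcium cycling, 8 (42.1%) were higher and 5 (26.3%) lower, beside 16.7% and 61.9% of all genes. The count of 8 was 5 without the 6 iBAT libraries with the most muscle RNA, which leaves 2. Ckmt2, the sarcomeric mitochondrial creatine kinase, had 0 to 10.4 RPKM in iBAT (median 6.42), against 0 to 3.56 RPKM in iWAT (median 0.302), overlapping, with a difference of 1.71 ± 0.72 (adjusted p = 0.026) that became -0.50 (adjusted p = 0.71) without those libraries. Without iBAT library 37 or 40 alone it was 1.54 and missed the threshold (adjusted p = 0.055 and 0.054). Gamt, which makes creatine, was lower in iBAT at -2.02 ± 0.18 (adjusted p = 1.4e-17), and Atp2a3, a calcium pump, by -2.67 ± 0.14 (adjusted p = 6.4e-32).

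Several hormones of white adipocytes were far lower in iBAT. Of 30 white and pan-adipocyte genes, 20 (66.7%) were lower and 4 (13.3%) higher, shares near the 61.9% and 16.7% of all genes, and their median difference was -1.14. Lep, leptin, the hormone that reports fat stores, had 2.72 to 40.7 RPKM in iBAT (median 14.7), against 143 to 1085 RPKM in iWAT (median 625), and no library overlapped although each depot spanned a wide range. Its difference was -5.11 ± 0.39 (adjusted p = 1.8e-21). Adipoq, adiponectin, had 499 to 965 RPKM in iBAT (median 611), against 1717 to 2897 RPKM in iWAT (median 2394) and was lower at -1.70 ± 0.14 (adjusted p = 9.7e-20). Retn, resistin, had 16.8 to 122 RPKM in iBAT (median 40.1), against 728 to 1254 RPKM in iWAT (median 826), a difference of -4.31 ± 0.25 (adjusted p = 6e-28). Nnat, neuronatin, an imprinted gene, differed by -4.15 ± 0.36 (adjusted p = 9.6e-19). Cebpb, a factor of early adipogenesis and of brown fat, averaged 129 ± 21 RPKM in iBAT and 26.6 ± 5.26 RPKM in iWAT (SD, n = 8 each) and was higher by 2.24 ± 0.12 (adjusted p = 1.6e-30). Pparg, the factor that all adipocytes need, was higher by 0.86 ± 0.08 (adjusted p = 6e-16).

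Genes linked to fat expansion varied strongly between iWAT libraries. Sfrp5, a secreted Wnt inhibitor, had 0.932 to 4.44 RPKM in iBAT (median 2.1), against 17 to 179 RPKM in iWAT (median 98.5), a difference of -4.36 ± 0.30 (adjusted p = 3e-24). Mest, an imprinted gene tied to adipocyte growth, had 1.74 to 4.68 RPKM in iBAT (median 2.99), against 9.11 to 226 RPKM in iWAT (median 72.8), a difference of -3.69 ± 0.34 (adjusted p = 2.6e-17). The iWAT ranges lay above the iBAT ranges for both. Car3, a carbonic anhydrase abundant in white fat, averaged 1162 ± 331 RPKM in iBAT and 7154 ± 1623 RPKM in iWAT (SD, n = 8 each).

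Of 42 secreted factors of fat tested, 28 (66.7%) were lower and 7 (16.7%) higher, near the 61.9% and 16.7% of all genes, and with median-ratio scaling 24 lower and 10 higher. Retnla, a resistin-like protein, differed by -4.75 ± 0.27 (adjusted p = 3e-29), Fgf10, a growth factor of preadipocytes, by -3.37 ± 0.18 (adjusted p = 4.8e-30), and Igf1 by -2.84 ± 0.17 (adjusted p = 5.4e-27). Cfd, adipsin, had 313 to 1413 RPKM in iBAT (median 623), against 1957 to 7783 RPKM in iWAT (median 3890), a difference of -2.52 ± 0.30 (adjusted p = 3.2e-12). On the side of iBAT, Fgf21, a hormone of metabolic stress, had 1.18 to 5.46 RPKM in iBAT (median 2.67), against 0.081 to 0.814 RPKM in iWAT (median 0.4), low in both but without overlap, and was higher by 1.35 ± 0.23 (adjusted p = 1.5e-07). Gdf15, another stress hormone, had 1.3 to 14.5 RPKM in iBAT (median 6.27), against 0.371 to 1.78 RPKM in iWAT (median 1.4), overlapping, a difference of 1.59 ± 0.30 (adjusted p = 1.3e-06). Nrg4, a growth factor considered a product of brown fat, had 45.4 to 73.6 RPKM in iBAT (median 56), against 29.1 to 83.3 RPKM in iWAT (median 48.2). These overlapped, and the difference of 0.31 ± 0.11 (adjusted p = 0.0087) was lost in the fit of the 2 groups alone (adjusted p = 0.095) and without iWAT library 85 or 88 (0.23, adjusted p = 0.054, and 0.22, adjusted p = 0.06). Bmp8b, another such factor, had 0.662 to 1.21 RPKM in iBAT (median 0.964), against 1.37 to 2.54 RPKM in iWAT (median 1.6), a difference of -0.43 ± 0.13 (adjusted p = 0.0013), but with RefSeq transcripts only it was 0.46 (adjusted p = 0.0052), so its direction depends on the transcript used.

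**Figure D2:**
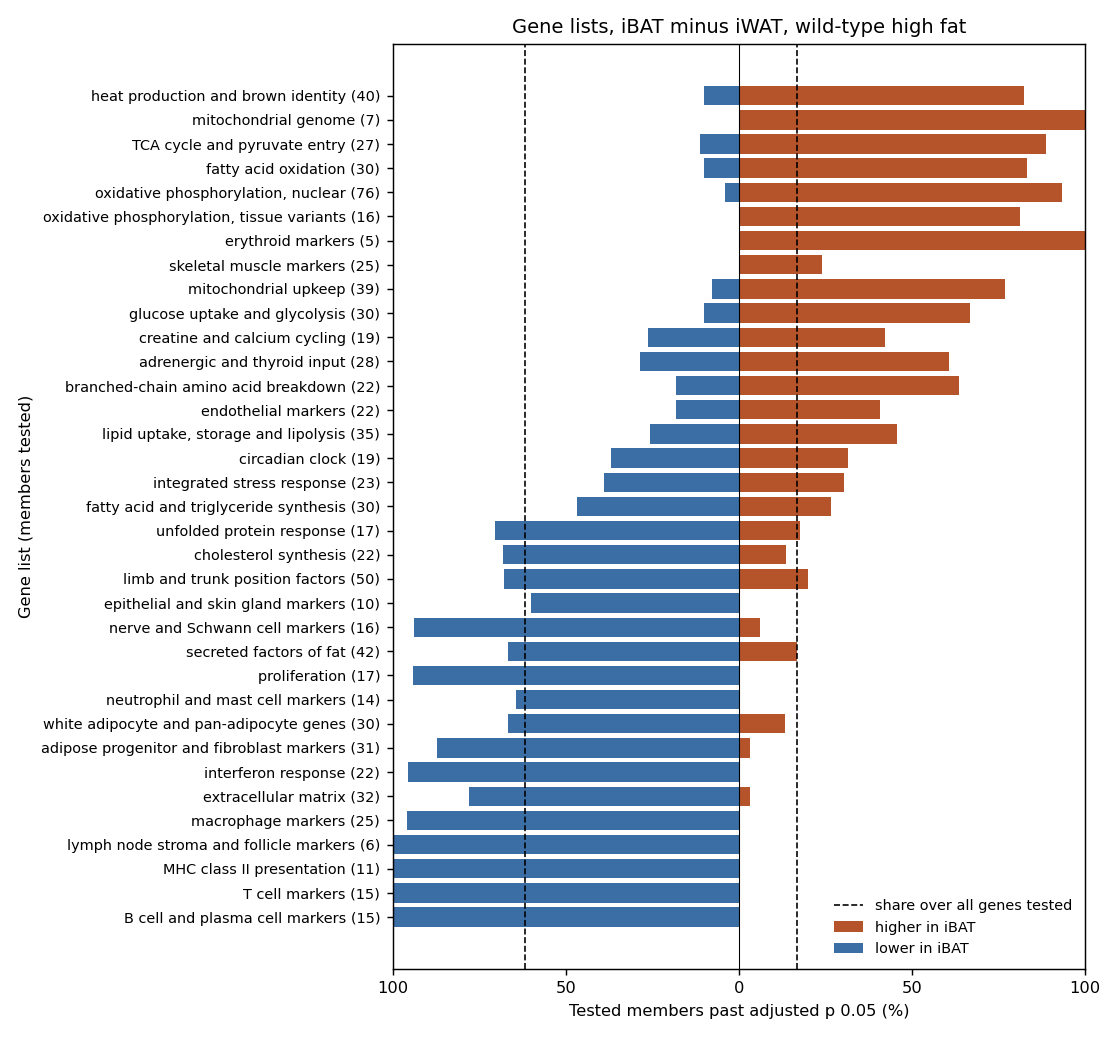
Percent of the tested members of each of 35 gene lists that passed an adjusted p of 0.05 in limma, higher in iBAT to the right and lower in iBAT to the left, ordered by the median difference. The dashed lines mark 16.7% higher and 61.9% lower over all genes tested.

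Some genes that record the position of a tissue along the body differed widely between the depots, in both directions. Of 72 limb and trunk position factors, 50 passed the filter on low values, so 22 low genes entered no test. In those tested, 10 (20%) were higher and 34 (68%) lower in iBAT, near the 16.7% and 61.9% of all genes, and under quantile normalization 21 were higher and 21 lower. Zic1, a zinc finger factor of the dorsal midline, had 1.98 to 3.47 RPKM in iBAT (median 2.35), against 0 to 0.0706 RPKM in iWAT (median 0.0172) and was listed at 0 in 4 iWAT libraries. The difference was 1.78 ± 0.07 (adjusted p = 8.9e-39). Zic4 was listed at 0 in all 8 iWAT libraries and had 0.275 to 1.43 RPKM in iBAT (median 0.671, adjusted p = 7.6e-08). Tbx5, a factor of the forelimb, was higher in iBAT by 1.13 ± 0.14 (adjusted p = 9.9e-12).

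Hox genes are laid out in clusters whose order mirrors the body axis from head to tail. In the Hoxa cluster Hoxa3, Hoxa4 and Hoxa5 were higher in iBAT, and Hoxa9 and Hoxa10 were lower, under each of the 3 scalings. Hoxa6 was lower at -0.60, but its direction turned with quantile normalization, at 0.02. Hoxa4 had 6.15 to 10.3 RPKM in iBAT (median 8.91), against 0.484 to 1.61 RPKM in iWAT (median 0.878), a difference of 2.33 ± 0.12 (adjusted p = 1.3e-31). Hoxa5 had 9.77 to 14.5 RPKM in iBAT (median 12.6), against 2.08 to 4.13 RPKM in iWAT (median 2.96), a difference of 1.79 ± 0.10 (adjusted p = 2.6e-29). Hoxa7 differed by -0.84 ± 0.10 (adjusted p = 3.8e-12), Hoxa9 by -2.60 ± 0.15 (adjusted p = 2.4e-29) and Hoxa10 by -2.66 ± 0.08 (adjusted p = 2.8e-50), all lower in iBAT, and the call of Hoxa7 was lost under quantile normalization.

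The Hoxc cluster changed direction between paralogs 5 and 6 under each of the 3 scalings. Hoxc4 and Hoxc5 were higher in iBAT by 0.82 ± 0.10 (adjusted p = 2e-12) and 1.09 ± 0.11 (adjusted p = 8e-16), and Hoxc6 was lower at -1.09 ± 0.09 (adjusted p = 1.6e-19). Hoxc8 had 0.922 to 2.59 RPKM in iBAT (median 1.39), against 27.2 to 35.3 RPKM in iWAT (median 33.4), with no overlap and a difference of -3.70 ± 0.15 (adjusted p = 3.4e-39). Hoxc9 had 0 to 0.304 RPKM in iBAT (median 0.0986), against 4.94 to 7.98 RPKM in iWAT (median 7.09), a difference of -2.81 ± 0.09 (adjusted p = 5.2e-46). Hoxc10 was listed at 0 in all 8 iBAT libraries and had 7.35 to 11.8 RPKM in iWAT (median 8.6, adjusted p = 2.6e-59). Neighbouring Hox transcripts overlap in part, so reads may be shared between them.

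In the Hoxb and Hoxd clusters no gene was called higher in iBAT, but with median-ratio scaling Hoxb2 and Hoxb4 were higher at 0.53 and 0.31, and with quantile normalization Hoxb2, Hoxb3 and Hoxb4 were at 0.84, 0.32 and 0.61. Hoxb7 was lower at -1.10 ± 0.10 (adjusted p = 6.6e-17), Hoxd4 by -0.97 ± 0.11 (adjusted p = 9.4e-14) and Hoxd9 by -1.42 ± 0.13 (adjusted p = 1.5e-17). Outside the clusters, Tbx15, a T-box factor of trunk and limb mesenchyme, had 0.544 to 2.72 RPKM in iBAT (median 1.73), against 6.25 to 8.34 RPKM in iWAT (median 7.29), a difference of -1.72 ± 0.25 (adjusted p = 3e-09). Shox2, a limb factor, differed by -2.21 ± 0.11 (adjusted p = 5.4e-34), Emx2 by -1.92 ± 0.10 (adjusted p = 3.1e-30), Twist1 by -1.63 ± 0.10 (adjusted p = 2.9e-26) and En1 by -0.70 ± 0.08 (adjusted p = 7.7e-13), and none of these overlapped. Pitx1, a factor of the hindlimb, did not pass the filter on low values, with 0 to 0.124 RPKM in iBAT and 0.0344 to 0.25 RPKM in iWAT.

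**Figure D3:**
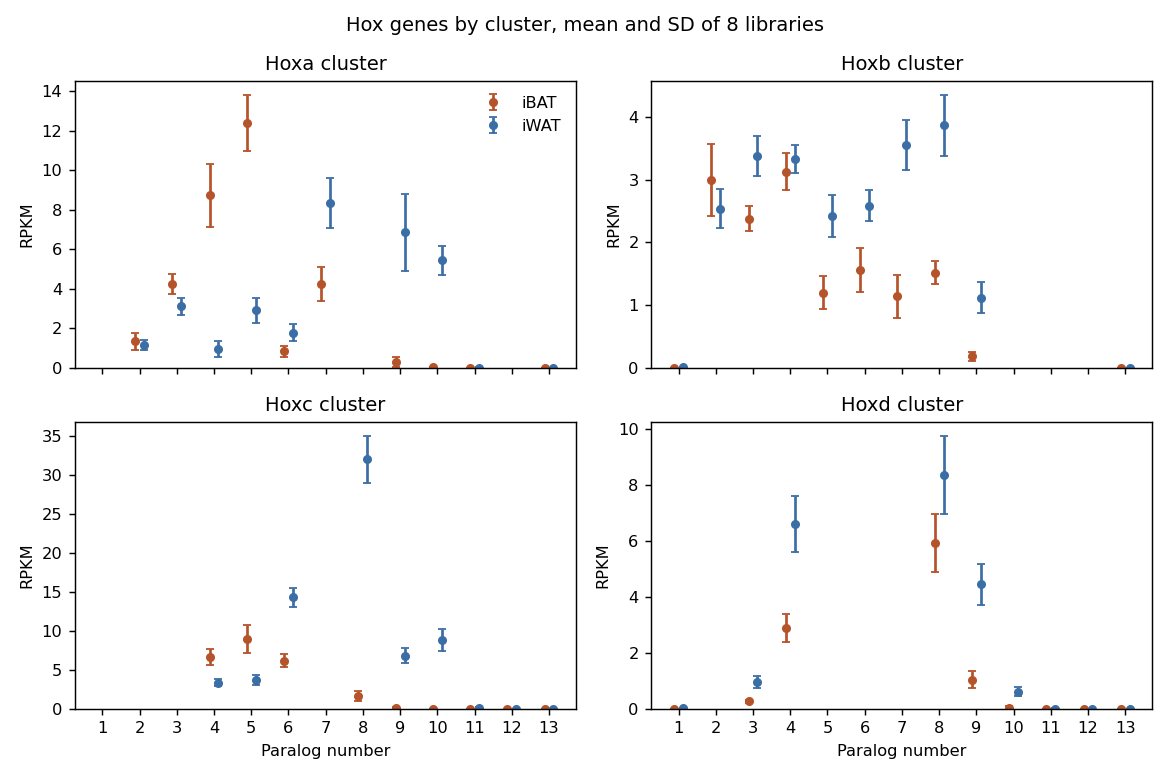
Mean RPKM of each Hox gene by paralog number in the 4 clusters, with the SD of 8 libraries per depot as bars and iBAT left of iWAT. In iBAT the levels peaked at Hoxa5 (12.4 RPKM) and Hoxc5 (8.97 RPKM), and in iWAT at Hoxa7 (8.32 RPKM) and Hoxc8 (32 RPKM).

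Stromal genes were low in iBAT. Of 31 markers of adipose progenitors and fibroblasts, 27 (87.1%) were lower and 1 was higher, beside 61.9% and 16.7% of all genes. Their median difference was -1.37, and their summed level was 1133 to 1732 RPKM in iBAT and 5460 to 7797 RPKM in iWAT. Pi16, a marker of early progenitors, had 5.62 to 9.81 RPKM in iBAT (median 7.24), against 60.5 to 153 RPKM in iWAT (median 105), a difference of -3.64 ± 0.19 (adjusted p = 5.7e-32). Dpp4 and Cd55, found on the same cells, differed by -3.47 ± 0.17 (adjusted p = 1e-33) and -3.30 ± 0.16 (adjusted p = 3e-34), and Sema3c by -3.25 ± 0.18 (adjusted p = 9.6e-30). Of 32 genes of the extracellular matrix, 25 (78.1%) were lower and 1 higher, beside the same shares of all genes. Col1a2, a chain of type I collagen, had 49.7 to 112 RPKM in iBAT (median 65.6), against 328 to 808 RPKM in iWAT (median 350), a difference of -2.61 ± 0.20 (adjusted p = 1e-20). Fn1, fibronectin, differed by -3.24 ± 0.19 (adjusted p = 8.7e-29), Fbn1, fibrillin, by -2.32 ± 0.21 (adjusted p = 7.8e-18), and Timp2, an inhibitor of matrix proteases, by -2.92 ± 0.17 (adjusted p = 2e-28).

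Lymphocyte genes made up most of the 12 largest negative differences. All 15 B cell and plasma cell markers and all 15 T cell markers were lower in iBAT with no overlap. Over all genes 61.9% were called lower, and 39.8% lay lower with no overlap. The median differences of the 2 lists were -5.03 and -4.10. The B cell markers summed to 6.27 to 16.3 RPKM in iBAT, against 514 to 1712 RPKM in iWAT. Cd79a, a signalling chain of the B cell receptor, had 0 to 0.335 RPKM in iBAT (median 0.146), against 30.6 to 102 RPKM in iWAT (median 47.1), a difference of -5.52 ± 0.31 (adjusted p = 1.3e-29), and Cd79b, its partner, differed by -5.79 ± 0.32 (adjusted p = 8.5e-30). Ighm, the heavy chain of IgM, had 3.7 to 12.1 RPKM in iBAT (median 8.1), against 216 to 1050 RPKM in iWAT (median 609). Ighm, Igh-VX24 and Ighv14-2 lie in one locus of many similar genes, so their levels are uncertain.

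Genes of the lymph node's own cells went with them. Glycam1, a ligand that guides lymphocytes through high endothelial venules, had 0 to 0.237 RPKM in iBAT (median 0.0709), against 32 to 77.9 RPKM in iWAT (median 42.1) and was listed at 0 in 4 iBAT libraries. Its difference was -5.42 ± 0.29 (adjusted p = 5e-31). Cxcl13, the chemokine that builds B cell follicles, had 1.15 to 8.1 RPKM in iBAT (median 2.56), against 45.1 to 193 RPKM in iWAT (median 68.9), a difference of -4.47 ± 0.30 (adjusted p = 5.5e-25). Cr2, found on B cells and follicular dendritic cells, was listed at 0 in 7 of 8 iBAT libraries and had 6.75 to 26.2 RPKM in iWAT. Marco and Cd209b, receptors of lymph node sinus and marginal zone macrophages, differed by -5.82 ± 0.28 (adjusted p = 5.6e-34) and -5.38 ± 0.24 (adjusted p = 2e-35). Ltb and Faim3, both of lymphocytes, differed by -5.34 ± 0.29 (adjusted p = 2.6e-30) and -5.35 ± 0.32 (adjusted p = 1.1e-27). All 6 tested genes of lymph node stroma and follicle were lower in iBAT, beside 61.9% of all genes. Among these 6 was Cr2, which is also counted with the B cell markers. Ccl19 and Ccl21a were listed at 0 in both depots. The labels do not say whether the inguinal node was removed.

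**Figure D4:**
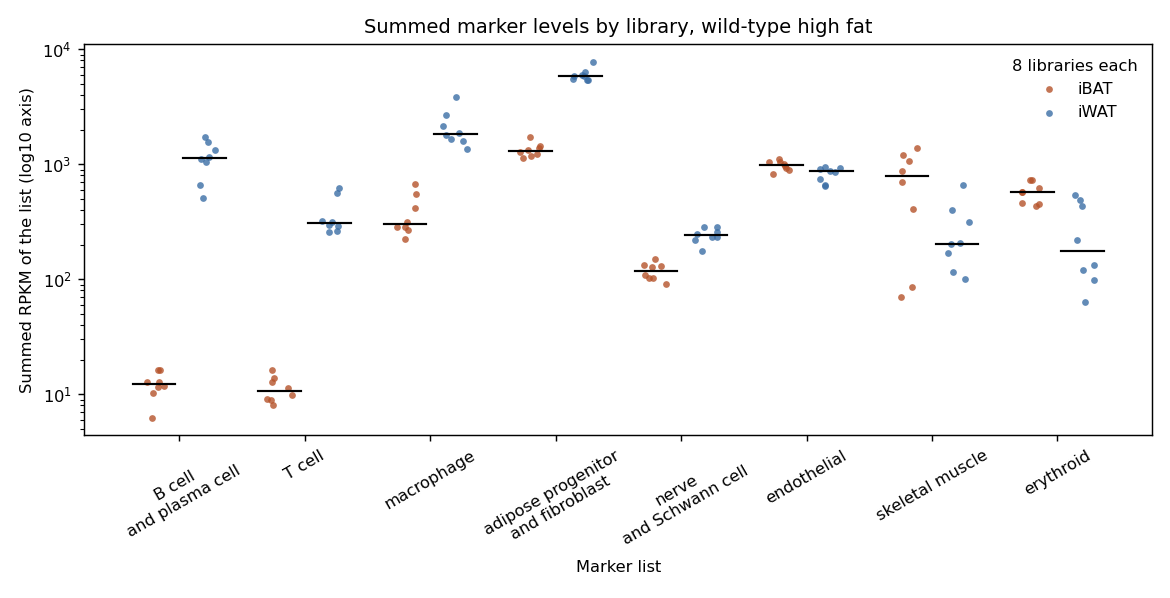
Summed RPKM of 8 marker lists in each library on a log10 axis, with a bar at the median of 8 and iBAT left of iWAT. The B cell sums had medians of 12.3 RPKM in iBAT and 1144 RPKM in iWAT, while muscle sums overlapped with 69.8 to 1387 RPKM in iBAT and 99.7 to 658 RPKM in iWAT.

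Macrophage and antigen presentation genes were also lower in iBAT, beside these lymphocyte sums, and how much of this came with the lymphocytes was not tested. Of 25 macrophage markers 24 (96%) were lower, beside 61.9% of all genes. Their summed level was 223 to 669 RPKM in iBAT and 1350 to 3836 RPKM in iWAT. Timd4 and Lyve1, markers of resident macrophages, differed by -4.46 ± 0.26 (adjusted p = 1.3e-28) and -3.64 ± 0.19 (adjusted p = 6.7e-31), and Lyz2, lysozyme, by -2.70 ± 0.26 (adjusted p = 4.2e-16). Lyve1 was also on the list of endothelial markers and is counted in both. All 11 genes of MHC class II presentation were lower. Cd74, the invariant chain, had 95.2 to 234 RPKM in iBAT (median 125), against 719 to 1889 RPKM in iWAT (median 1233), a difference of -3.16 ± 0.22 (adjusted p = 3e-23), and H2-Ob, expressed mainly by B cells, differed by -5.03 ± 0.29 (adjusted p = 1e-28). Lck, the kinase of T cell receptors, differed by -4.49 ± 0.27 (adjusted p = 3.9e-27). Of 22 interferon response genes 21 were lower, with Irf7 at 3.51 to 7.87 RPKM in iBAT (median 4.68), against 16.5 to 84.3 RPKM in iWAT (median 24.2) and a difference of -2.39 ± 0.26 (adjusted p = 4.4e-14). Of 14 neutrophil and mast cell markers 9 (64.3%) were lower, near the 61.9% of all genes, among them the mast cell protease Mcpt4 at -3.25 ± 0.30 (adjusted p = 3.5e-17). Without the iWAT libraries 85, 87 and 88 the lower counts were 15 of 15 for B cells, 15 of 15 for T cells, 23 of 25 for macrophages, 11 of 11 for MHC class II and 20 of 22 for interferon.

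Vessel, nerve and blood markers did not follow a single direction. Of 22 endothelial markers, 9 (40.9%) were higher and 4 (18.2%) lower, beside 16.7% and 61.9% of all genes. Their median difference was 0.21. With median-ratio scaling 16 were higher and 4 lower, beside 33.6% and 40.6% of all genes. Kdr, a receptor for VEGF, had 58.2 to 88.9 RPKM in iBAT (median 76.2), against 26.2 to 39 RPKM in iWAT (median 35.9). Flt1, another, had 32 to 41.2 RPKM in iBAT (median 35.5), against 12.1 to 20.5 RPKM in iWAT (median 17.1). Neither overlapped. Their differences were 1.11 ± 0.10 (adjusted p = 1.6e-17) and 1.08 ± 0.11 (adjusted p = 5.4e-15). Plvap, of fenestrated vessels, and Vwf, of larger vessels, were lower in iBAT at -2.10 ± 0.13 (adjusted p = 3.2e-27) and -1.24 ± 0.12 (adjusted p = 2.6e-16).

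Of 16 nerve and Schwann cell markers tested 15 (93.8%) were lower and 1 higher, beside 61.9% and 16.7% of all genes. With median-ratio scaling 11 were lower, and with quantile normalization 8. Mbp, a protein of myelin, differed by -2.56 ± 0.20 (adjusted p = 1.4e-20). S100b, a calcium-binding protein of glia that brown adipocytes of mice also express, was the exception, with 37 to 76.1 RPKM in iBAT (median 64.6), against 3.3 to 8.81 RPKM in iWAT (median 6.31) and a difference of 3.15 ± 0.24 (adjusted p = 8.7e-22).

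Skeletal muscle RNA varied within both depots. The 25 muscle markers summed to 69.8 to 1387 RPKM in iBAT, where libraries 34 and 38 were low, and to 99.7 to 658 RPKM in iWAT, where library 84 was highest. In limma 6 of the 25 markers (24%) were called higher in iBAT and none lower, beside 16.7% and 61.9% of all genes. The higher count was 3 without iBAT library 37 and 3 without the iWAT libraries 85, 87 and 88. No marker was called higher without the 6 iBAT libraries with the highest sums. Mb, myoglobin, had 0.318 to 52.1 RPKM in iBAT (median 37), against 0.0805 to 19.7 RPKM in iWAT (median 0.293), and its difference of 3.10 ± 0.83 (adjusted p = 0.00053) became -0.12 (adjusted p = 0.94) without those 6. Myh1, a fast myosin, had 0 to 24 RPKM in iBAT (median 7.63), against 0 to 4.45 RPKM in iWAT (median 0.191), overlapping, and its difference of 1.88 ± 0.74 (adjusted p = 0.018) missed the threshold without library 37 (1.56, adjusted p = 0.056). All 5 erythroid markers tested were higher in iBAT, beside 16.7% of all genes. None of them was called without the same 6 libraries, which leaves 2 of iBAT. Hbb-bs, a globin with near-identical copies, had 273 to 465 RPKM in iBAT (median 355), against 40.9 to 337 RPKM in iWAT (median 110). Its difference was 1.48 ± 0.44 (adjusted p = 0.0018), and 1.31 (adjusted p = 0.1) without those libraries. The 2 that remained had erythroid sums of 570 and 437 RPKM, in a range of 437 to 729 RPKM over all 8. Of 10 epithelial and skin gland markers tested 6 (60%) were lower in iBAT, near the 61.9% of all genes, and 1 in the fit of the 2 groups alone.

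Stress and clock genes split within their lists. In the integrated stress response, 7 of 23 genes (30.4%) were higher and 9 (39.1%) lower, beside 16.7% and 61.9% of all genes. With median-ratio scaling 12 were higher and 8 lower, and with quantile normalization 11 and 6. The summed level of the list was 586 to 780 RPKM in iBAT and 465 to 543 RPKM in iWAT. Atf5 and Atf4, transcription factors of this response, were higher by 1.89 ± 0.14 (adjusted p = 9.6e-23) and 0.86 ± 0.09 (adjusted p = 9.9e-15). Psat1, an enzyme of serine synthesis and common target of the pathway, had 2.9 to 6.81 RPKM in iBAT (median 4.75), against 35.5 to 53.6 RPKM in iWAT (median 41.3). Phgdh, the first enzyme of that synthesis, had 1.81 to 3.14 RPKM in iBAT (median 2.65), against 11.7 to 24.1 RPKM in iWAT (median 21). No library overlapped. They were lower in iBAT at -2.91 ± 0.16 (adjusted p = 1.2e-29) and -2.47 ± 0.18 (adjusted p = 3.6e-22). In the unfolded protein response 12 of 17 genes (70.6%) were lower and 3 (17.6%) higher, near the 61.9% and 16.7% of all genes, against 5 lower and 7 higher with median-ratio scaling. Xbp1, a factor that plasma cells also need, differed by -1.53 ± 0.13 (adjusted p = 7.5e-19), and Pdia4, a protein disulfide isomerase, by -1.67 ± 0.12 (adjusted p = 8.4e-23).

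Of 19 clock genes 6 (31.6%) were higher and 7 (36.8%) lower, beside 16.7% and 61.9% of all genes. With median-ratio scaling 10 were higher and 5 lower, and the same counts were found with quantile normalization. Nfil3, a repressor of clock output, had 15.3 to 33.4 RPKM in iBAT (median 29.9), against 4.29 to 6.05 RPKM in iWAT (median 5.24), a difference of 2.17 ± 0.15 (adjusted p = 1.2e-23), and Arntl, the core activator, was higher by 0.91 ± 0.14 (adjusted p = 3.2e-08). Per3 and Dbp, which are driven by that activator, were lower at -1.89 ± 0.15 (adjusted p = 1.1e-20) and -1.80 ± 0.19 (adjusted p = 1.8e-14). The time of day of sampling is not given in the labels.

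Of 22 cholesterol synthesis genes tested 15 (68.2%) were lower and 3 (13.6%) higher, near the 61.9% and 16.7% of all genes, and with quantile normalization 8 lower and 9 higher. Hmgcs1, which makes HMG-CoA, was higher by 1.07 ± 0.13 (adjusted p = 2.3e-12), and Mvk, mevalonate kinase, lower at -1.39 ± 0.10 (adjusted p = 1.3e-23). Breakdown of branched-chain amino acids leaned to iBAT, 14 of 22 (63.6%) higher and 4 (18.2%) lower, beside the same shares of all genes. Dld, the shared subunit of the dehydrogenase complexes, was higher by 2.09 ± 0.08 (adjusted p = 2.3e-40), while Bcat1 and Bcat2, which remove the amino group, were lower at -1.73 ± 0.20 (adjusted p = 8.5e-13) and -1.06 ± 0.17 (adjusted p = 3.1e-08). Of 17 proliferation genes 16 (94.1%) were lower in iBAT, beside 61.9% of all genes, and 10 were lower with quantile normalization. Mki67 had 0.933 to 4.73 RPKM in iBAT (median 2.3), against 4.08 to 15.7 RPKM in iWAT (median 6.59), and Top2a was lower at -1.42 ± 0.22 (adjusted p = 1.2e-08). In iWAT library 85, with the highest T cell sum, the proliferation sum was also highest, at 135 RPKM.

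The depot difference on high fat diet was then set against that on control diet at the same temperature. The interaction passed the threshold in 2629 of 16310 genes (16.1%), positive in 1042 (6.39%) and negative in 1587 (9.73%). A positive value means a larger iBAT minus iWAT difference on the high fat diet. With library quality weights 5354 genes passed. Ucp1 did not pass in limma, with 7328 to 9281 RPKM in iBAT (median 8200) and 4.66 to 117 RPKM in iWAT (median 14.9) on control diet and an interaction of 0.53 ± 0.57 (adjusted p = 0.58).

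Npr1, a receptor of natriuretic peptides, had 48.3 to 76.1 RPKM in iBAT (median 59.7) and 24.5 to 34 RPKM in iWAT (median 29.1) on high fat diet, and 22.9 to 33.3 RPKM in iBAT (median 25.8) and 24.4 to 31.5 RPKM in iWAT (median 29) on control diet. The 8 iBAT libraries on high fat lay above all others, and the interaction was 1.14 ± 0.13 (adjusted p = 8.3e-11). Tppp, Spef1, Tfdp1 and Fam101b also gave positive interactions, at 1.37 ± 0.18 (adjusted p = 1.1e-08), 1.08 ± 0.14 (adjusted p = 1.4e-08), 0.73 ± 0.10 (adjusted p = 8.2e-08) and 0.89 ± 0.13 (adjusted p = 1.6e-07). Ddo, an oxidase of D-aspartate, reached 1.00 ± 0.14 (adjusted p = 2.2e-07). Ptgds, prostaglandin D synthase, had 2.34 to 6.75 RPKM in iBAT (median 3.03) and 0.0978 to 0.999 RPKM in iWAT (median 0.282) on high fat diet, and 28.9 to 104 RPKM in iBAT (median 55.7) and 0.13 to 1.53 RPKM in iWAT (median 0.482) on control diet. The iBAT libraries lay above iWAT on both diets, by far on control diet, and the interaction was -3.48 ± 0.39 (adjusted p = 8.3e-11).

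G6pdx, which supplies NADPH for fat synthesis, had 41.2 to 55 RPKM in iBAT (median 49.7) and 53.7 to 90 RPKM in iWAT (median 74.7) on high fat diet, and 62.2 to 98.2 RPKM in iBAT (median 82.8) and 36.2 to 44.3 RPKM in iWAT (median 41) on control diet. The order of the medians was thus inverted between diets, and the interaction was -1.56 ± 0.17 (adjusted p = 2e-11). Smpd1, acid sphingomyelinase, gave -1.21 ± 0.12 (adjusted p = 4.8e-13), Cnnm2, a magnesium transport protein, -1.54 ± 0.16 (adjusted p = 1.1e-11), Def8 -0.87 ± 0.09 (adjusted p = 2e-11) and Lrrc59 -0.90 ± 0.10 (adjusted p = 8.3e-11). Scd1 gave -1.53 ± 0.25 (adjusted p = 3.7e-06), with 9389 to 14147 RPKM in iBAT (median 12472) and 4183 to 6489 RPKM in iWAT (median 5025) on control diet. Sfrp5 and Mest gave -2.55 ± 0.42 (adjusted p = 3.7e-06) and -2.33 ± 0.48 (adjusted p = 0.0002), and on control diet their iWAT medians were 9.78 and 5.02 RPKM, against 98.5 and 72.8 RPKM on high fat diet.

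By list, 10 of 22 endothelial markers had a positive interaction with diet and none a negative one, beside 6.39% and 9.73% of all genes. Without the 6 iBAT libraries with the most muscle RNA, which leaves 2, the count was 4, while the list's median interaction was 0.39, against 0.47 with all libraries. Of 30 glucose genes 8 were negative and 1 positive, and 2 negative without those libraries, with a median of -0.20 against -0.15 with all, and of 30 fat synthesis genes 6 were negative and 2 positive. Of 76 nuclear respiratory genes only 2 passed, both positive, none under median-ratio scaling and 15 after quantile normalization. Muscle sums on control diet ran up to 6368 RPKM in iBAT and 16171 RPKM in iWAT, and their part in these counts was not tested.

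In Ucp1-KO mice on the same high fat diet Ucp1 had 546 to 964 RPKM in iBAT (median 815) and 5.4 to 28.6 RPKM in iWAT (median 10), so reads were still assigned to the locus. The interaction of genotype with the depot difference was 3.24 ± 0.57 (adjusted p = 1.5e-06). Over all genes 7796 (47.8%) passed, 1058 (6.49%) positive and 6738 (41.3%) negative. The median interaction over all genes was -0.25. With median-ratio scaling 2998 were positive and 2965 negative, and the median was -0.01. A positive value means a larger iBAT minus iWAT difference in wild-type mice. The same 16 wild-type libraries enter both interactions, so the sets of values are not independent.

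The brown program stood out less from iWAT in Ucp1-KO mice. Of the 40 heat and brown identity genes, Ucp1 included, 24 had a positive and 5 a negative interaction. Of the 76 nuclear respiratory genes 51 were positive and 3 negative, beside 6.49% and 41.3% of all genes. All 7 mitochondrial genome genes were positive, with sums of 67976 to 107212 RPKM in wild-type iBAT and 27572 to 46830 RPKM in Ucp1-KO iBAT. Slc25a42 gave 1.68 ± 0.18 (adjusted p = 1.8e-12). Tpcn1, an ion channel of endosomes and lysosomes, had 21.7 to 26.3 RPKM in iBAT (median 24.6) and 11.7 to 15.5 RPKM in iWAT (median 13.8) in wild-type mice, and 9.04 to 12.7 RPKM in iBAT (median 10.6) and 10.4 to 14.7 RPKM in iWAT (median 13) in Ucp1-KO mice, an interaction of 1.03 ± 0.08 (adjusted p = 1.4e-18). Pde4a, a phosphodiesterase that breaks down cyclic AMP, gave 1.15 ± 0.12 (adjusted p = 4.9e-13), Mapt, the tau protein, 1.86 ± 0.19 (adjusted p = 4.9e-13), and Dnajc28 1.24 ± 0.11 (adjusted p = 2.9e-15). Dio2 and Ppargc1a showed no called interaction with genotype, at 0.28 ± 0.37 (adjusted p = 0.55) and -0.00 ± 0.28 (adjusted p = 1).

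Immune, matrix and stress genes gave negative values, beside 41.3% of all genes with a negative interaction. All 22 interferon response genes were negative, with summed levels of 119 to 172 RPKM in wild-type iBAT and 569 to 1567 RPKM in Ucp1-KO iBAT. The iWAT sums overlapped, with 270 to 875 RPKM in wild-type and 262 to 505 RPKM in Ucp1-KO mice. Ubd, an interferon-induced ubiquitin-like protein, had 0.818 to 5.94 RPKM in iBAT (median 2.04) and 18.3 to 86.1 RPKM in iWAT (median 28.5) in wild-type mice, and 39.6 to 147 RPKM in iBAT (median 111) and 17.9 to 93.7 RPKM in iWAT (median 21.4) in Ucp1-KO mice, so the order of the medians was inverted. The interaction was -5.09 ± 0.39 (adjusted p = 5.5e-19). Cfb, complement factor B, gave -3.29 ± 0.25 (adjusted p = 2.4e-19), and H2-D1, a class I molecule with close copies, -1.80 ± 0.14 (adjusted p = 1.6e-18).

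Srxn1, which repairs oxidized peroxiredoxins, had 25.2 to 41.6 RPKM in iBAT (median 33.1) and 9.25 to 14.4 RPKM in iWAT (median 11.8) in wild-type mice, and 159 to 516 RPKM in iBAT (median 321) and 8.99 to 14.3 RPKM in iWAT (median 12.2) in Ucp1-KO mice, an interaction of -3.10 ± 0.23 (adjusted p = 2e-19). Alas1, the first enzyme of heme synthesis, gave -2.12 ± 0.18 (adjusted p = 4e-17) and Dnmt3l -2.38 ± 0.19 (adjusted p = 1.9e-18). In the integrated stress response 18 of 23 genes were negative and none positive, among them Gdf15 at -3.18 ± 0.42 (adjusted p = 1.3e-09) and Fgf21 at -1.89 ± 0.32 (adjusted p = 1.1e-06). In the extracellular matrix 29 of 32 were negative, and of the macrophage markers 21 of 25, beside 41.3% of all genes. With median-ratio scaling 23 matrix genes, 20 macrophage markers and 14 stress response genes were negative, and all 22 interferon response genes stayed so. Lymphocyte marker sums of every wild-type iBAT library were below those of every Ucp1-KO iBAT library. B cell sums were 6.27 to 16.3 RPKM in wild-type libraries, while Ucp1-KO libraries ran from 60.9 to 2937 RPKM (median 325). For T cells the sums were 7.99 to 16.2 RPKM in wild-type libraries, while Ucp1-KO libraries ran from 27.6 to 83.9 RPKM, and muscle sums in Ucp1-KO iBAT ran up to 16592 RPKM. The part of these in the counts was not tested.

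**Figure D5:**
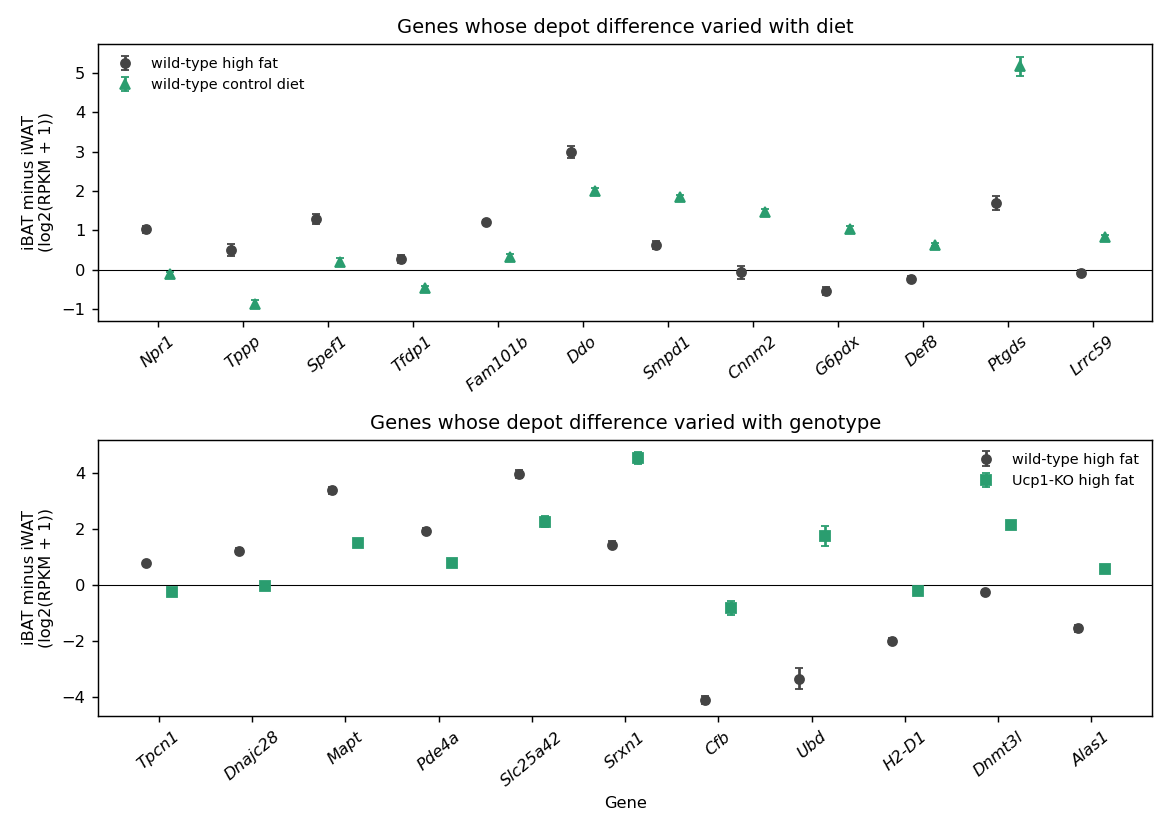
Difference iBAT minus iWAT on the log2(RPKM + 1) scale, with its standard error from the 8 libraries per depot, for 12 genes in wild-type mice on high fat and control diet (top) and 11 genes in wild-type and Ucp1-KO mice on high fat diet (bottom). Ptgds differed by 1.69 on high fat and 5.17 on control diet, and Ubd by -3.33 in wild-type and 1.75 in Ucp1-KO mice.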

How the data were processed

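RNA of whole fat depots was measured by sequencing in 96 libraries, made per the labels with the TruSeq Stranded mRNA kit. The authors deposited a table of RPKM per transcript, processed with CASAVA and bcl2fastq per the submitters' processing notes. The aligner, counter, strand setting and build were not given in the sources used here. Of 168326 transcripts, 13.76% had no gene ID and were left out, with 9.852% of the RPKM. The transcript with the highest mean stood for its gene, giving 29072 symbols.

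Genes that reached 0.5 RPKM in 8 or more libraries (16310) were fitted as log2(RPKM + 1) in limma 3.58.1 (R 4.3.3) with a trended prior over all 96 libraries and 12 group means, and adjusted by Benjamini-Hochberg. The script was tested on simulated data. Low values were whole multiples of 1 read for 94.9 to 95.6% of values within a tolerance of 0.05, which gave the depths. For each library the precision follows from those 9.005 to 16.23 M reads.

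Replicates are different animals. Alternatives were another scaling, pseudocount, filter, transcript choice, library weights, a fit of the compared groups alone, and each library left out. Leaving out iWAT libraries 85, 87 and 88, leaving out 6 iBAT libraries, and RefSeq NM transcripts only were chosen after seeing the data. The comparison, its members and gene lists were chosen with earlier results of these data known. Genes were named from a fixed set, the 12 largest differences each way with no overlap, up to 5 called members per list and direction, position factors, the 6 strongest interactions each way, the 10 highest genes, and genes whose call was lost. A few genes that this rule names are not reported here. Outside that rule, and chosen after their values were seen, are Cox6a1, Cox7a2, COX3, ND3, Adrb3, Gnas, Igf1, Lyz2, Atp5k, Atp5g2 and Ndufa11.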

Additional observations from a re-analysis of the deposited data

Results flagged for a closer look

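In 42 cases, 40 of a named gene and 2 of a summed list, the highest or lowest of 8 libraries stood far from the other 7 on the log2(RPKM + 1) scale. Chance alone gives about 5% of groups such a library, and 354 groups of named genes were examined. Of the 42 cases 22 were iWAT library 87, each time the highest. In that library the RPKM values, each with the next highest of the 8 in brackets, were Cidea 71 (11.1), Dio2 2.72 (0.852), Elovl3 5.57 (0.496), Cpt1b 11.3 (4.47), Cox8b 162 (45.9), Uqcrc1 89.2 (71.5), Cyc1 134 (98.7), Cox4i1 472 (371), Cox6a1 426 (298) and Cox7a2 159 (119). They were further ND4L 10658 (6090), COX1 9113 (5692), ND5 4079 (2849), ND6 4175 (2910), Acadvl 113 (71.9), Sucla2 94.2 (65.3), Elovl6 24.3 (4.98), Acacb 141 (59.1), Fasn 735 (204) and Acly 76.5 (47.3). Its mitochondrial genome genes summed to 28027 RPKM against 17210 RPKM in the next library, and its heat and brown identity genes to 916 RPKM against 562 RPKM. Among iBAT libraries the values that stood apart, each with its nearest neighbour in brackets, were in library 33 Lck 0.688 (0.298), in library 34 Igf1 3.23 (6.31) and Marco 0.453 (0.189), in library 35 Dbp 6.7 (9.33), in library 36 Gamt 1.52 (2.52) and Faim3 0.825 (0.294). They were also in library 37 Pcx 174 (132), Acly 54.9 (37), Per3 9.2 (6.34) and Mvk 3.5 (2.32), in library 38 ND6 18632 (14445) and Atf5 212 (258), in library 39 Cr2 0.089 (0), in library 40 Atp5b 3051 (3507) and Idh3a 704 (803). Among the other iWAT libraries they were in library 84 Ckmt2 3.56 (0.73), Mb 19.7 (1.87) and Myh1 4.45 (1.04), in library 85 Igf1 90 (63.2), in library 88 Bmp8b 2.54 (1.83).

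The depot difference varied with diet or genotype by the test of the difference itself in the genes named for that reason, all in limma. With diet the log2 values of the high fat difference minus the control diet difference were Npr1 1.14, Tppp 1.37, Spef1 1.08, Tfdp1 0.73, Fam101b 0.89 and Ddo 1.00 on the positive side and Smpd1 -1.21, Cnnm2 -1.54, G6pdx -1.56, Def8 -0.87, Ptgds -3.48 and Lrrc59 -0.90 on the negative side. With genotype the values of the wild-type difference minus the Ucp1-KO difference were Tpcn1 1.03, Dnajc28 1.24, Mapt 1.86, Pde4a 1.15 and Slc25a42 1.68. On the negative side they were Srxn1 -3.10, Cfb -3.29, Ubd -5.09, H2-D1 -1.80, Dnmt3l -2.38 and Alas1 -2.12. Ucp1, the deleted gene, gave 3.24.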

How the results depend on the processing

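Of 200 gene results 184 kept direction and call under each of the 28 alternatives they were run with, 16 of which left out a single library, and of 46 counts 24 stayed within 1.5 times. Median-ratio scaling gave 5473 genes higher and 6628 lower in iBAT (large differences 1418 and 2009), and quantile normalization 6516 and 5496 (1509 and 1753). A pseudocount of 0.1 gave 5502 large differences on the side of iWAT. The diet interaction passed in 5354 genes with quality weights (2807 positive, 2547 negative) and in 1141 without 6 iBAT libraries (233 and 908). The genotype interaction gave 2998 positive and 2965 negative with median-ratio scaling and 3605 and 2429 with quantile normalization. With median-ratio scaling, list counts became 8 lower for fat synthesis, 25 higher for lipid uptake, 16 higher for endothelial markers and 5 lower for the unfolded protein response. With quantile normalization they became 21 lower for position factors, 8 lower for cholesterol synthesis, 15 higher for endothelial markers, 8 lower for nerve, 2 lower for epithelial markers and 10 lower for proliferation. Without 6 iBAT libraries, which leaves 2, they were 5 higher for creatine and calcium cycling, 0 for muscle, 0 for erythroid markers and 3 lower for epithelial markers. Muscle gave 3 without iBAT library 37 and 3 without iWAT libraries 85, 87 and 88. A filter of 2 RPKM left 3 lymph node and 1 epithelial gene lower, and the fit of the compared groups alone 1 epithelial gene. The cause of these shifts was not tested, except that the filter tests fewer genes.

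Directions that turned, in log2 units, were with median-ratio scaling Acly 0.16, Scd1 0.19, Fabp4 0.51 and Lpl 0.39. With quantile normalization they were Lhx8 0.27, Lpl 0.35 and Bmp8b 0.21, with RefSeq NM transcripts Bmp8b 0.46, and without 6 iBAT libraries Ckmt2 -0.50, Mb -0.12 and Myh1 -0.47. Fabp4, at -0.00 with all libraries, ranged over -0.07 to 0.10 with single libraries left out, the highest without iWAT 87, with 0.04, 0.04 and 0.03 without iBAT 33, 34 and 36, and 0.00 and 0.03 without iWAT 82 and 86. Leaving out single libraries gave 12583 to 12791 called genes, 2646 to 2761 higher and 9869 to 10102 lower (large 772 to 806 and 3289 to 3569), 2349 to 3039 for diet and 7359 to 8147 for genotype. No paired analysis was possible because the labels do not show which iBAT and iWAT libraries share an animal. At these depths, differences of genes near the filter of 0.5 RPKM are least precise.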
